A study of Mus musculus with 4 samples.

Results

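Dorsal raphe RNA of stressed mice without the dopamine D2 receptor was set against dorsal raphe RNA of stressed wild-type mice, which are 2 of the 4 arrays of the series. The arrays were chosen by their titles: 1 array for the stressed receptor-null mice (D2R-KO) and 1 for the stressed wild-type mice (WT). The RNA of 5 male C57BL/6J mice, 10 weeks old, was pooled for each of these arrays, and the mice had swum for 6 min on each of 4 days and were dissected 12 h after the last swim. The genotypes D2R KO and WT are given without the allele or the breeding, so what else differs between the pools is not known here. The other 2 arrays, used only for context, carried stressed mice lacking the long receptor form (D2LR-KO) and WT mice that had not swum. In all, 16383 genes were measured, and the 15655 of them detected on at least 1 of the 2 compared arrays were compared. With 1 pooled array per group there is no replicate error and no test, so the precision of every value below is limited by that number.

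The D2 receptor is a dopamine receptor coupled to inhibitory G proteins, made as a long and a short splice form, and it acts both on cells that receive dopamine and as an autoreceptor on dopamine neurons. In the anterior pituitary, dopamine acting on this receptor holds back prolactin secretion. The dorsal raphe nucleus is a midbrain and pontine cell group that holds many of the serotonergic neurons that project to the forebrain, together with glutamatergic, GABAergic and some dopaminergic neurons. Forced swimming is a stressor that raises glucocorticoids and alters serotonergic activity, and the series title links the long D2 form to the serotonin receptor 5-HT1A, encoded by Htr1a.

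The stressed WT array stood apart from the other 3. Across genes, levels on the D2R-KO array correlated with those on the stressed WT array at r = 0.958, against 0.994 with the D2LR-KO array and 0.990 with the non-stressed WT array (genes are not independent replicates). The SD of deviations from each gene's median over the arrays was 0.38 log2 units for stressed WT and 0.12 to 0.13 for the other 3. The stressed WT array cannot be left out of this comparison, so values of the other 2 arrays are given beside many of the results. Where only D2R-KO and stressed WT are given, the difference alone does not show which array lay apart. Set against non-stressed WT, which shares the D2R-KO array and differs in stress as well as genotype, D2R-KO had 18 higher and 50 lower genes of 15607 at the 2-fold threshold. Repeated control spots on the 2 arrays differed with an SD of 0.0966 to 0.103 log2 units, which covers spots on an array and not mice. The gene probes above the detection limit numbered 21495 (91.6%) on the D2R-KO array and 21459 (91.5%) on the stressed WT array.

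Against stressed WT, 425 genes (2.71% of those compared) were higher in D2R-KO by 2-fold or more and 403 (2.57%) were lower by as much, on a log2(signal + 50) scale that understates the differences of dim genes. At 1.5-fold, 1460 genes (9.33%) were higher and 1353 (8.64%) lower, and these 2 shares are the background for the gene lists below. The median log2 difference over all compared genes was -0.01. At 4-fold, 14 genes were higher and 7 lower. In most of the 2-fold genes stressed WT was the array that lay apart. Of the 425 higher genes 370 (87.1%), and of the 403 lower genes 329 (81.6%), had the other 3 arrays within 1.5-fold of each other. D2R-KO was the array apart by the same rule for 7 higher and 3 lower genes. For 9 higher and 39 lower genes the 2 knockouts lay within 1.5-fold of each other, and so did the 2 WT arrays. These rules set no smallest difference of D2R-KO from D2LR-KO, or of D2LR-KO from non-stressed WT. With the background read around each spot, the share of 2-fold genes with stressed WT apart was 47.7%, against 84.4% with the blank spots as background.

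**Figure D1:**
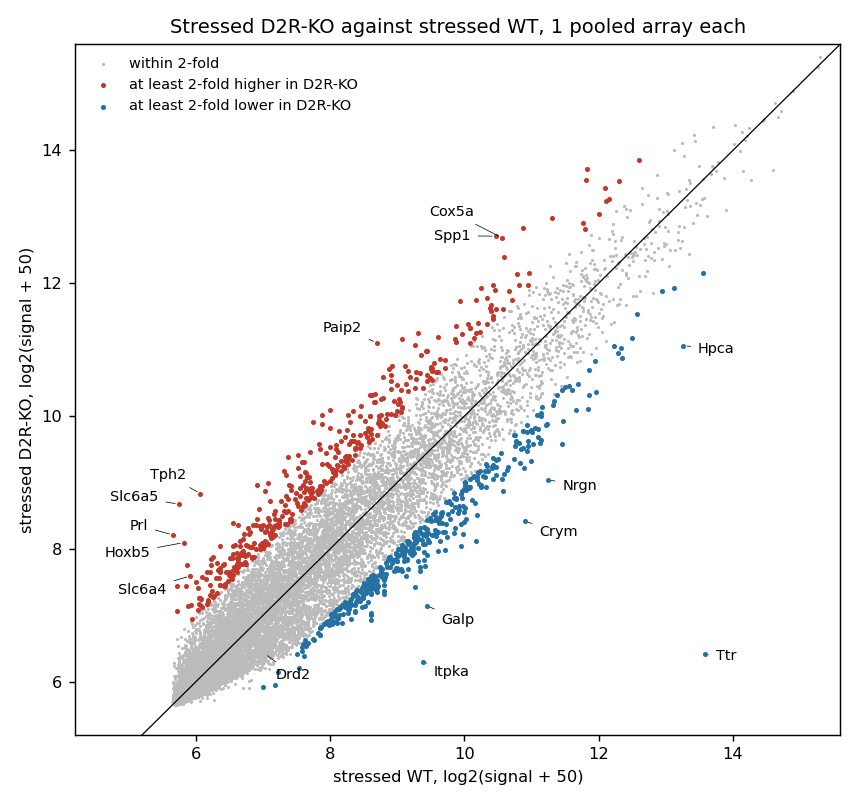
Each point is a compared gene, with its level on the stressed D2R-KO array (y axis) against that on the stressed WT array (x axis), both as quantile-normalized log2(signal + 50). The line marks equal levels; 425 genes lie 2-fold or more above it and 403 as far below, and Ttr lies farthest below. Levels under the detection limit (Prl in stressed WT) are drawn as computed.

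The size of the differences among bright genes depended on the scaling. Among the brightest 10% of genes the median log2 difference was 0.10 after quantile normalization, 0.61 on the deposited values (log2 of the value + 25) and 0.70 when arrays were scaled to a common median, whereas the median of all genes stayed within 0.03 of 0. Under 7 processing settings at once, 196 genes (1.25%) passed 2-fold upward and 35 (0.224%) passed it downward. The sign was the same in all 7 settings for 417 of the 425 higher genes and 399 of the 403 lower genes. Some genes named below passed 1.5-fold on the main scale but not in every setting. With the background read around the spot Drd2, Pitx3, Htr3a, Tph2, Gchfr, Gata2, Gphn, Aldh5a1, Enpp2, Hoxd3, Hoxa2, Zic2, Dnajc7, Dusp6, Ier2, Gja1, Csf1r, Cd68, Jaml, Doc2g and Ldha lay under it. With median scaling Drd2, Th, Slc6a3, Pitx3, Adcy2, Pts, Gabra5, Gria1, Cck, Rplp1, Homer1, Klf9, Npy2r, Olig1, Csf1r, Cd68, Actb, Ldha and Snrpb did. The same held for genes named only in the closing section. They were Gsk3b, Arntl, Per2, Chat, Dbh and Bcas1 with the background around the spot, and Dbp, Per2, Tsc2, Dbh, Ifitm3 and Rsad2 with median scaling. Intensities quoted below are the deposited ones, scaled by the authors to an array median of 25. In bulk tissue, fewer cells of a type and less RNA per cell cannot be told apart.

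The targeted gene was lowest on the D2R-KO array but was not absent from it. Drd2 had an intensity of 20.9 in D2R-KO and 43.8 in stressed WT, with 48.3 in D2LR-KO and 26.8 in non-stressed WT. Its log2 difference, D2R-KO minus stressed WT, was -0.60, or 1.51-fold lower, and ranged from -0.89 to -0.33 over the 7 settings. The non-stressed WT value lies closer to D2R-KO than to stressed WT. Whether this probe lies inside the deletion could not be read from the sources used here, and its level is therefore a weak check of the genotype labels.

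Genes of dopamine neurons were lower more often than higher. Among 16 compared members of the dopamine neuron and receptor list, 6 were at least 1.5-fold lower and 1 higher. The list median was -0.20, with a range of -0.30 to -0.14 over the settings, and -0.10 against non-stressed WT. The summed intensity of the list went the other way, with 4285 in D2R-KO and 3619 in stressed WT. Without Aldh1a1, its brightest member, the sum was 1850 in D2R-KO and 2565 in stressed WT. Th, tyrosine hydroxylase, the first enzyme of dopamine synthesis, had 772.8 in D2R-KO and 1155.5 in stressed WT, with 813.9 in D2LR-KO and 897.3 in non-stressed WT (log2 difference -1.11). Slc6a3, the dopamine transporter, had 278.4 in D2R-KO and 395.4 in stressed WT, with 436.6 in D2LR-KO and 454.3 in non-stressed WT (-0.90). With median scaling these differences were -0.46 for Th and -0.37 for Slc6a3. For the transporter it is D2R-KO that lies below the other 3 arrays, whereas for Th stressed WT lies above all of them. Sox6 and Pitx3, transcription factors of midbrain dopamine neurons, differed by -1.05 and -0.75, and for both stressed WT alone was high. Drd1 and Drd5, the stimulatory dopamine receptors, differed by 0.04 and 0.10. The signalling list downstream of the receptor held 37 compared genes, of which 9 were lower and 4 higher. Its median was -0.09, turned to 0.01 with median scaling and was -0.005 against non-stressed WT. All 13 genes past 1.5-fold had stressed WT outside the range of the other 3 arrays. Rgs2, which shortens G protein signals, had 650.7 in D2R-KO and 183.6 in stressed WT, with 526.9 in D2LR-KO and 563.8 in non-stressed WT (1.27). Adcy2, an adenylyl cyclase, had 337.7 in D2R-KO and 492.0 in stressed WT, with 276.1 in D2LR-KO and 309.2 in non-stressed WT (-0.96).

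Genes that lie next to Drd2 were compared separately, since a targeted locus is inherited together with its neighbours. Of 8 compared neighbours, 2 were at least 1.5-fold lower and 0 higher, with a median of -0.40 against stressed WT and 0.10 against non-stressed WT. Htr3a, a subunit of the serotonin-gated ion channel, had 5.7 in D2R-KO and 43.0 in stressed WT, with 14.6 in D2LR-KO and 37.4 in non-stressed WT (-1.09). Both knockouts lay below both WT pools for Htr3a in the deposited values, but with the background around the spot its difference was only -0.26. Usp28, a deubiquitinating enzyme, had 46.8 in D2R-KO and 109.2 in stressed WT, with 41.9 in D2LR-KO and 37.5 in non-stressed WT (-1.06), so that stressed WT alone was high. Ankk1 and Ttc12, which also neighbour the receptor gene, differed by -0.53 and -0.33, and Ncam1, a neural adhesion molecule, had 568.0 in D2R-KO and 570.0 in stressed WT.

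Some pituitary hormone genes were high on the D2R-KO array alone. Prl (prolactin) had an intensity of 156.3 in D2R-KO, was not above the detection limit in stressed WT, and had 1.3 in D2LR-KO and 1.9 in non-stressed WT, which makes it at least 5.75-fold higher than in stressed WT. Pomc, the precursor of corticotropin and melanocortins, had 283.5 in D2R-KO and 71.5 in stressed WT, with 49.6 in D2LR-KO and 48.9 in non-stressed WT (log2 difference 1.36). Gh (growth hormone) had 135.3 in D2R-KO and 42.6 in stressed WT, with 39.1 in D2LR-KO and 32.9 in non-stressed WT (1.06). Each of these 3 genes was highest on the D2R-KO array, and the other 3 arrays lay together. Cga, the glycoprotein hormone alpha subunit, had 4.5 in D2R-KO, was not above the limit in stressed WT, and had 1.2 in D2LR-KO and 1.0 in non-stressed WT. Lhb and Fshb, the gonadotropin beta subunits, differed by -0.08 each. Pitx1, a pituitary transcription factor, went the other way with 59.8 in D2R-KO and 132.1 in stressed WT (-1.08), stressed WT being the array that was high. Of 12 compared pituitary genes 3 were higher by 1.5-fold or more and 1 lower, and the list median was -0.01, which the undetected values of Prl and Cga cannot move because both genes lie above it. Whether pituitary tissue or cells in the raphe gave these transcripts was not tested.

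The promoters of 2 of these hormone genes are shown because Prl is a known target of the pituitary factor Pit-1, whereas Pomc is transcribed in other pituitary cells. They are the 250 bases before the gene start in RefSeq, build GRCm38.p6, read 5′ to 3′ on the gene's strand, at chr13:27057320-27057569 for Prl and chr12:3954695-3954944 for Pomc, both on the plus strand. Capitals mark a match to the Pit-1 motif TATNCAT on either strand.
Prl: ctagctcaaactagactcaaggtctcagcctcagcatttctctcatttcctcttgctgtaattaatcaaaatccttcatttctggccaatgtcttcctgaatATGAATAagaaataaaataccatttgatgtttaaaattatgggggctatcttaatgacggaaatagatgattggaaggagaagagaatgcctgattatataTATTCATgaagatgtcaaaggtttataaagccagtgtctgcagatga
Pomc: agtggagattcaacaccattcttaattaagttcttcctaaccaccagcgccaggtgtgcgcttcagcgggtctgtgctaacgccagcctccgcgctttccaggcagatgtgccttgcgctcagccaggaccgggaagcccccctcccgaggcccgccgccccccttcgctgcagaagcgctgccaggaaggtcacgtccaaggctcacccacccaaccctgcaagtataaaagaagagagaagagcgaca
The Prl window held 2 matches, ATGAATA at 148 bases and TATTCAT at 47 bases before the start, and the Pomc window held 0. The motif occurs in 7.92% of windows (2603 of 32851 promoters), so a match describes the letters and is not a binding site.

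**Figure D2:**
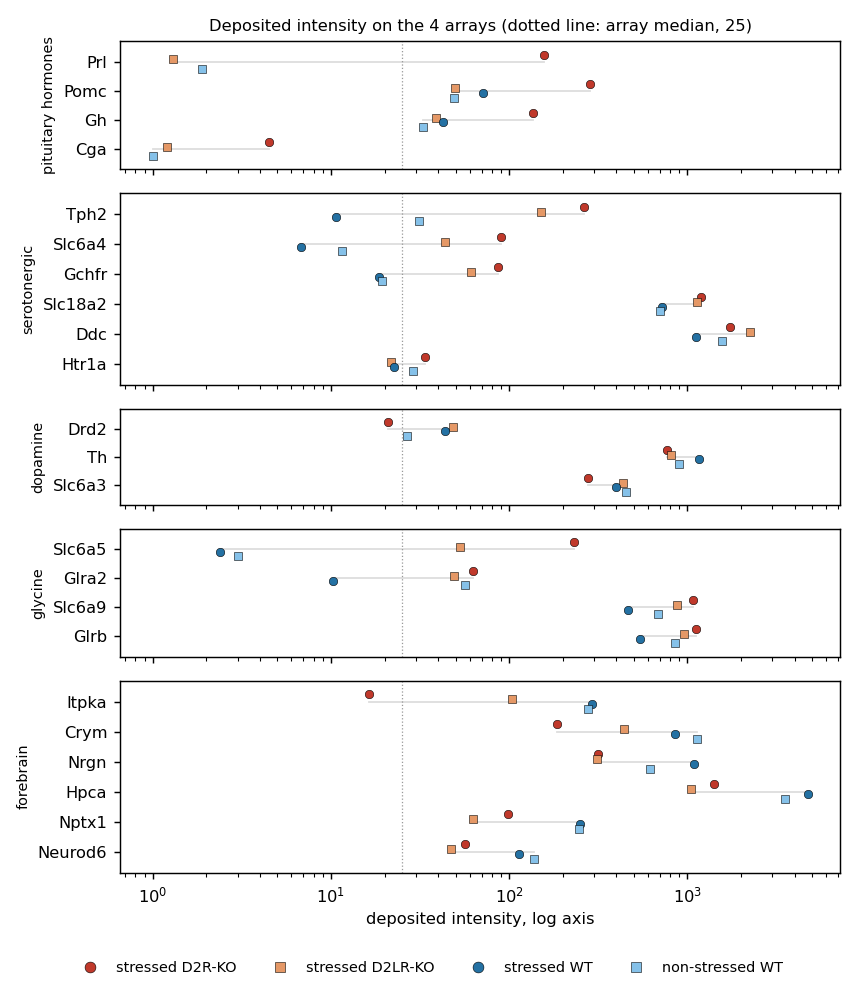
Deposited intensity (log axis, array median 25) of genes grouped by role on the 4 pooled arrays, 1 point per array. Prl, Pomc and Gh are highest on the D2R-KO array only; Tph2, Slc6a4 and Gchfr are high on both knockout arrays, and forebrain genes are low on both. Prl and Cga have no value on the stressed WT array and no point there.

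Some serotonergic genes, led by Tph2 and Slc6a4, were higher in D2R-KO, but most of the list lay within 1.5-fold. Tph2, the neuronal tryptophan hydroxylase that limits serotonin synthesis, had 264.6 in D2R-KO and 10.7 in stressed WT, with 151.5 in D2LR-KO and 31.4 in non-stressed WT. Its log2 difference was 2.76 and shrank to 0.57 with the background read around the spot. Slc6a4, the serotonin transporter, had 89.6 in D2R-KO and 6.8 in stressed WT, with 43.5 in D2LR-KO and 11.6 in non-stressed WT (1.67, lowest 0.90 over the settings). For both genes the order of the arrays was D2R-KO, D2LR-KO, non-stressed WT and stressed WT from high to low. Gchfr, which regulates synthesis of the tetrahydrobiopterin cofactor, had 87.1 in D2R-KO and 18.5 in stressed WT, with 60.7 in D2LR-KO and 19.4 in non-stressed WT. Its difference of 1.21 turned to -0.12 with the background around the spot. Slc18a2, the vesicular monoamine transporter, had 1197.8 in D2R-KO and 718.1 in stressed WT, with 1132.7 in D2LR-KO and 702.5 in non-stressed WT (0.21). Maoa, monoamine oxidase A, differed by 0.67, and Pts, another cofactor enzyme, by -0.91. Of 14 compared members of the serotonin synthesis, packaging, uptake and breakdown list, 4 were higher by 1.5-fold or more and 1 lower, and the median was 0.20 (0.09 to 0.75 over the settings).

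Transcription factors and receptors of the serotonin system differed less. Gata2 had 37.7 in D2R-KO and 13 in stressed WT (0.67) and Gata3 77.9 in D2R-KO and 48.8 in stressed WT (0.32), both being factors of serotonergic neuron identity. Lmx1b, needed for the same neurons, had 5.6 in D2R-KO and 10.8 in stressed WT (-0.16). Of 11 compared factors 1 was higher at 1.5-fold and 1 lower. Among 13 compared serotonin receptors 0 were at least 1.5-fold higher and 1, Htr3a, was lower. Htr1a, the receptor named in the series title, had 33.7 in D2R-KO and 22.6 in stressed WT, with 21.7 in D2LR-KO and 28.7 in non-stressed WT (0.27). D2R-KO was the highest of the 4 for Htr1a, by less than 1.5-fold. The tissue label asks for serotonergic markers. Tph2, Slc6a4 and Slc18a2 were detected on both compared arrays, Tph2 and Slc6a4 below the array median of 25 in stressed WT, and how much raphe tissue each pool held was not tested.

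The windows before the Tph2 and Slc6a4 starts are given because these genes were high together on both knockout arrays and GATA factors are known regulators of serotonergic neurons. They lie at chr10:115185023-115185272 on the minus strand for Tph2 and chr11:76998347-76998596 on the plus strand for Slc6a4 (RefSeq, GRCm38.p6, 250 bases, 5′ to 3′ on the gene's strand). Capitals mark a match to the GATA motif AGATAA, or TTATCT on the other strand.
Tph2: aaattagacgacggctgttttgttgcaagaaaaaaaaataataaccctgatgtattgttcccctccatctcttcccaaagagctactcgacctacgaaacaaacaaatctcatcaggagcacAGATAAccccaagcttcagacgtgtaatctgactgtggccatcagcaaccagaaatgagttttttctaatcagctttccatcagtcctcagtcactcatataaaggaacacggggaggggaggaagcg
Slc6a4: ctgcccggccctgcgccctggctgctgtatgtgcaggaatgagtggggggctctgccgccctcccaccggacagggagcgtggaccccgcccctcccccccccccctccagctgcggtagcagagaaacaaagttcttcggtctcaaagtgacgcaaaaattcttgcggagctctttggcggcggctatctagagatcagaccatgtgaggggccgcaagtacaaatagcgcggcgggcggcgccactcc
The Tph2 window held 1 match, at 128 bases before the start, and the Slc6a4 window 0, against 9.99% of windows (3281 of 32851) with at least 1. No match says only that these letters are not in this window.

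Of 9 compared glycine transport and receptor genes, 4 were higher by 1.5-fold or more and 0 lower. Slc6a5, the transporter that loads glycinergic nerve endings in brainstem and spinal cord, had 231.9 in D2R-KO and 2.4 in stressed WT, with 53.2 in D2LR-KO and 3.0 in non-stressed WT (log2 difference 2.93, lowest 2.0 over the settings). Both knockout arrays were high and both WT arrays low, and D2R-KO was the highest. Glra2, a glycine receptor subunit, had 62.7 in D2R-KO and 10.3 in stressed WT, with 49.3 in D2LR-KO and 56.2 in non-stressed WT (1.2). Slc6a9, the glial glycine transporter, had 1069.0 in D2R-KO and 462.5 in stressed WT (0.65), and Gphn, the scaffold gephyrin, 211.9 in D2R-KO and 99.6 in stressed WT (0.62). For Glra2 and Gphn stressed WT was the array apart. The list median was 0.50 against stressed WT and 0.07 against non-stressed WT.

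A few genes of GABA and glutamate handling were higher, and receptor subunits lay on both sides. Gad2, a GABA-synthesizing enzyme, had 591.1 in D2R-KO and 300.8 in stressed WT, with 358.2 in D2LR-KO and 504.4 in non-stressed WT (0.45). Aldh5a1, which breaks down a GABA metabolite, had 85.7 in D2R-KO and 24.4 in stressed WT (1.02) and was the 1 of 7 compared members of its list at least 1.5-fold higher, with 0 lower and a median of 0.41. Slc17a6, which fills synaptic vesicles with glutamate in subcortical neurons, had 654.1 in D2R-KO and 95.0 in stressed WT, with 621.4 in D2LR-KO and 578.3 in non-stressed WT (2.13), so that stressed WT alone was low. Glul, the glutamine synthetase of astrocytes, had 474.3 in D2R-KO and 90.6 in stressed WT, with 84.5 in D2LR-KO and 728.9 in non-stressed WT (1.76), which splits the arrays across genotype and stress. In the glutamate transport list 3 of 11 were higher by 1.5-fold or more and 0 lower (median 0.29). Gabrg1 and Gabra3 were higher by 0.96 and 0.74 and Gabra5 lower (-0.83), with 2 of 11 GABA-A subunits higher and 1 lower. Among 16 ionotropic glutamate receptor genes 0 were higher and 2 lower, led by Gria1 with 818.3 in D2R-KO and 997.1 in stressed WT (-0.84).

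The largest difference of all was Ttr. This gene encodes transthyretin, the thyroid hormone carrier made by the choroid plexus, and had 20.3 in D2R-KO and 5720.2 in stressed WT, with 193.1 in D2LR-KO and 12884.0 in non-stressed WT. It was 145-fold lower in D2R-KO (log2 difference -7.18, -7.91 to -6.36 over the settings). Both WT pools were high and both knockout pools low. On the main scale the other choroid plexus and ependyma genes differed far less against stressed WT. Of 12 compared, Ttr was the 1 that was at least 1.5-fold lower, Enpp2 the 1 that was higher, and the median was -0.09. Against non-stressed WT the same list had a median of -0.80. The median log2 levels of the list were low, 6.00 in D2R-KO and 6.18 in stressed WT, where the offset shrinks differences. On the deposited values with no pseudocount the list median against stressed WT was -0.53. How far the other genes fell short of Ttr therefore depends on the scale. Folr1, the choroid plexus folate receptor, had 2.2 in D2R-KO and 13.4 in stressed WT, with 3.9 in D2LR-KO and 62.8 in non-stressed WT, and Kl (klotho) had 8.0 in D2R-KO and 2.8 in stressed WT, with 12.0 in D2LR-KO and 36.0 in non-stressed WT. The summed intensity of the list, most of it from Ttr in both WT pools, was 2328 in D2R-KO and 6760 in stressed WT, with 2132 in D2LR-KO and 15664 in non-stressed WT. Without Ttr the sum was 2308 in D2R-KO and 1040 in stressed WT, with 1939 in D2LR-KO and 2780 in non-stressed WT. Most of that sum was Enpp2 on every array, with 2171.6 in D2R-KO, 853.8 in stressed WT, 1812.3 in D2LR-KO and 2368.9 in non-stressed WT. The sum therefore says little of the other members. The part of choroid plexus tissue in the Ttr values was not tested.

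**Figure D3:**
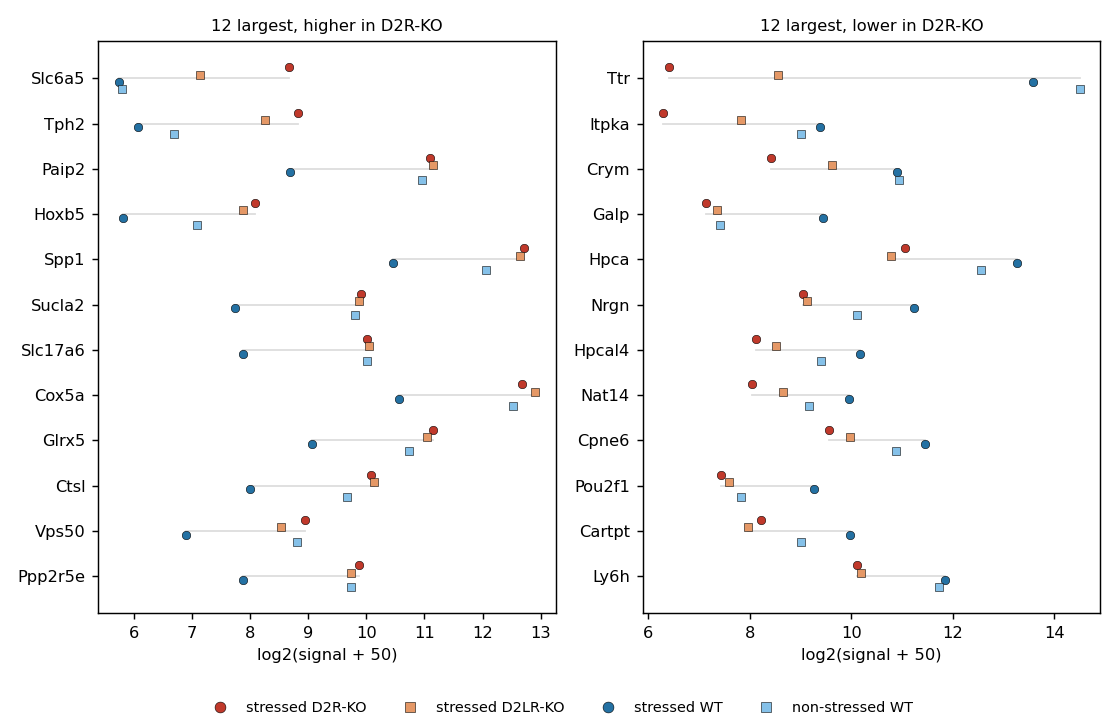
Quantile-normalized level (log2 of signal + 50) on the 4 pooled arrays of the 12 largest differences in each direction among genes detected on both compared arrays and at or above median brightness. Most higher genes have stressed WT alone at the low end, whereas Ttr, Itpka and Crym have both WT arrays at the high end and D2R-KO lowest.

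Genes of forebrain neurons stood among the largest lower differences. Itpka, an inositol trisphosphate kinase of dendritic spines, had 16.4 in D2R-KO and 292.7 in stressed WT, with 104.0 in D2LR-KO and 277.8 in non-stressed WT (-3.08). Crym, a thyroid hormone-binding crystallin, had 186.6 in D2R-KO and 857.5 in stressed WT, with 440.9 in D2LR-KO and 1128.1 in non-stressed WT (-2.48). Both genes were lowest in D2R-KO, next in D2LR-KO and high in both WT pools. Hpca, the calcium sensor hippocalcin, had 1413.9 in D2R-KO and 4733.4 in stressed WT, with 1042.5 in D2LR-KO and 3547.1 in non-stressed WT (-2.20), a difference that shrank to -0.63 with the background around the spot. Nrgn, the postsynaptic calmodulin-binding protein neurogranin, had 316.1 in D2R-KO and 1094.5 in stressed WT, with 310.4 in D2LR-KO and 618.3 in non-stressed WT (-2.20). Cpne6, a copine of hippocampal neurons, had 470.5 in D2R-KO and 1241.3 in stressed WT, with 581.5 in D2LR-KO and 1081.3 in non-stressed WT (-1.88).

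The list of cerebral cortex and hippocampus neurons leaned the same way. Of 21 compared genes 11 were at least 1.5-fold lower, 8 of them at least 2-fold, and 0 were higher. All 11 kept their sign in the 7 settings. The median was -0.83, with a range of -0.97 to -0.27 over the settings, and -0.78 against non-stressed WT, which shares the D2R-KO array. The summed intensity of these genes was 4439 in D2R-KO and 10029 in stressed WT, with 4644 in D2LR-KO and 9944 in non-stressed WT, so both knockout pools held less than both WT pools, and still did without Hpca, with 3025 in D2R-KO and 5296 in stressed WT, and 3601 in D2LR-KO and 6396 in non-stressed WT. The members were not uniform. Neurod1 had 78.2 in D2R-KO and 46.7 in stressed WT (0.36), and Lamp5, a membrane protein of cortical interneurons, had 791.8 in D2R-KO and 475.8 in stressed WT (0.20). Of 16 striatal and ventral forebrain genes 3 were lower and 0 higher (median -0.07). Among them were Lhx6 (-1.54) and Dlx1 (-1.32), both interneuron transcription factors. For Dlx1 both knockouts lay below both WT pools, whereas for Lhx6 stressed WT alone was high. Among thalamus and hypothalamus genes 2 of 15 were lower and 0 higher. Whether the pools differed in the tissue around the raphe was not tested.

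Neuropeptide precursors were lower more often than higher, with 12 of 32 compared genes at least 1.5-fold lower and 4 higher, a median of -0.26, and all 16 of these genes keeping their sign in the 7 settings. For 13 of the 16 stressed WT lay outside the range of the other 3 arrays. The list median against non-stressed WT was -0.21. Galp (galanin-like peptide, of the hypothalamus) had 55.7 in D2R-KO and 305.6 in stressed WT, with 66.5 in D2LR-KO and 71.1 in non-stressed WT (-2.29), so that stressed WT alone was high. Cartpt, the precursor of CART peptides, had 157.6 in D2R-KO and 451.7 in stressed WT, with 116.8 in D2LR-KO and 274.7 in non-stressed WT (-1.76). Tac2 had 6.5 in D2R-KO and 50.6 in stressed WT, with 12.6 in D2LR-KO and 71.4 in non-stressed WT (-1.23). Tac2 encodes neurokinin B, and for it, as for Cck (cholecystokinin, -1.20), both knockouts lay below both WT pools. Npy, neuropeptide Y, had 53.0 in D2R-KO and 129.9 in stressed WT, with 96.2 in D2LR-KO and 185.7 in non-stressed WT (-1.17). On the higher side stood Penk, the enkephalin precursor, with 470.1 in D2R-KO and 110.8 in stressed WT (1.49), and Nppc, C-type natriuretic peptide, with 162.4 in D2R-KO and 34.8 in stressed WT (1.45). Both had stressed WT lowest of the 4 arrays.

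Hox genes, which set position along the hindbrain and spinal cord, included a few that were much higher in D2R-KO. Hoxb5 had 141.1 in D2R-KO and 4.2 in stressed WT, with 108.0 in D2LR-KO and 50.6 in non-stressed WT (2.27, lowest 1.85). Hoxa5 had 77.2 in D2R-KO and 1.8 in stressed WT, with 95.6 in D2LR-KO and 31.3 in non-stressed WT (1.73). The same order, both knockouts above non-stressed WT and stressed WT at the bottom, held for Hoxd3 (0.81) and Hoxa2 (0.68). Hoxa7 was lower (-0.78), with 30.7 in D2R-KO and 65.7 in stressed WT. Of 21 compared Hox genes 4 were higher by 1.5-fold or more and 1 lower, and the median was -0.05. Pvalb, the calcium buffer parvalbumin, had 405.5 in D2R-KO and 124.6 in stressed WT, with 336.8 in D2LR-KO and 140.7 in non-stressed WT (1.16). Zic1 and Zic2, transcription factors of cerebellar and dorsal neurons, differed by 0.94 and 0.83, both with stressed WT lowest. In the cerebellum list, which holds these 3 genes, 3 of 13 were higher and 0 lower.

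Genes of mitochondrial respiration held several of the largest differences on the higher side. Cox5a, a cytochrome c oxidase subunit, had 4633.0 in D2R-KO and 685.1 in stressed WT, with 4702.3 in D2LR-KO and 3464.7 in non-stressed WT (2.13). Atp5c1, the gamma subunit of ATP synthase, had 5103.4 in D2R-KO and 841.3 in stressed WT, with 3928.5 in D2LR-KO and 3710.8 in non-stressed WT (1.95). Sucla2, a succinyl-CoA synthetase subunit, had 614.3 in D2R-KO and 84.2 in stressed WT, with 543.2 in D2LR-KO and 499.9 in non-stressed WT (2.17). In each of these genes stressed WT was the array apart and the other 3 lay within 1.5-fold of each other. Among 39 genes of complexes II to V and cytochrome c, 15 were higher by 1.5-fold or more and 2 lower, and among 35 of complex I, 7 were higher and 0 lower. For the tricarboxylic acid cycle 6 of 23 were higher and 2 lower. These 3 lists are bright, with median log2 levels of 12.4, 11.5 and 11.1 in D2R-KO, and stressed WT spread most among bright genes. The list medians were 0.14, 0.28 and 0.28 against stressed WT and 0.08, 0.16 and 0.13 against non-stressed WT. On the deposited scale the medians against stressed WT were 0.70, 0.64 and 0.70. Single members turned with the scale: Uqcr10 of complex III had 3092.5 in D2R-KO and 2962.7 in stressed WT, yet a quantile-normalized difference of -0.55.

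Some genes of protein synthesis and folding were higher in D2R-KO, while most members of these lists lay within 1.5-fold. Paip2, an inhibitor of poly(A)-binding protein, had 1465.7 in D2R-KO and 179.9 in stressed WT, with 1362.9 in D2LR-KO and 1147.1 in non-stressed WT (2.41). Eif3e, a subunit of translation initiation factor eIF3, had 272.0 in D2R-KO and 44.3 in stressed WT (1.83), and of 36 translation genes 9 were higher by 1.5-fold or more and 1 lower. Of 55 ribosomal protein genes 14 were higher and 4 lower, with a median of 0.22 against stressed WT and 0.02 against non-stressed WT. Rps26 had 2537.1 in D2R-KO and 640.4 in stressed WT (1.44), whereas Rplp1 had 2591.2 in D2R-KO and 4097.7 in stressed WT, with 3305.0 in D2LR-KO and 4395.9 in non-stressed WT (-1.20). Ribosomal protein genes have many near-identical copies, and the probe sequences were not used here. Among genes of heat shock and the unfolded protein response 8 of 20 were higher and 0 lower, all 8 with 1 sign in the 7 settings. Dnajc7, a co-chaperone, differed by 1.72 (0.57 with the background around the spot), Dnajb9 of the endoplasmic reticulum by 1.22, Atf4, a stress-response transcription factor, by 1.14, and Hspa5, the main chaperone there, had 1764.4 in D2R-KO and 587.1 in stressed WT, with 1432.1 in D2LR-KO and 1974.9 in non-stressed WT (1.04). That list's median was 0.08 against stressed WT and -0.07 against non-stressed WT. The ribosomal, translation and heat shock lists are bright too, with median log2 levels of 12.0, 9.9 and 10.3 in D2R-KO.

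Other large higher differences were also ones with stressed WT low. Spp1, the secreted phosphoprotein osteopontin, had 4690.0 in D2R-KO and 645.4 in stressed WT, with 4019.1 in D2LR-KO and 2453.7 in non-stressed WT (2.24). Ctsl, the lysosomal protease cathepsin L, had 694.8 in D2R-KO and 104.9 in stressed WT (2.08), and Glrx5, a mitochondrial protein of iron-sulfur cluster assembly, 1517.4 in D2R-KO and 230.7 in stressed WT (2.09). Vps50 of endosome recycling differed by 2.05, and Ppp2r5e, a protein phosphatase subunit, and Orc4 of the origin recognition complex by 2.0 each. Reep5, which shapes the endoplasmic reticulum, Srp54a of the signal recognition particle and Ttc3, a ubiquitin ligase, differed by 1.94, 1.84 and 1.81. On the lower side, Pou2f1, a broadly expressed transcription factor, had 75.9 in D2R-KO and 269.7 in stressed WT, with 83.2 in D2LR-KO and 105.3 in non-stressed WT (-1.84). Hpcal4, a neuronal calcium sensor, differed by -2.04, Nat14 by -1.91 and V1ra3, named as a vomeronasal receptor gene, by -1.67.

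**Figure D4:**
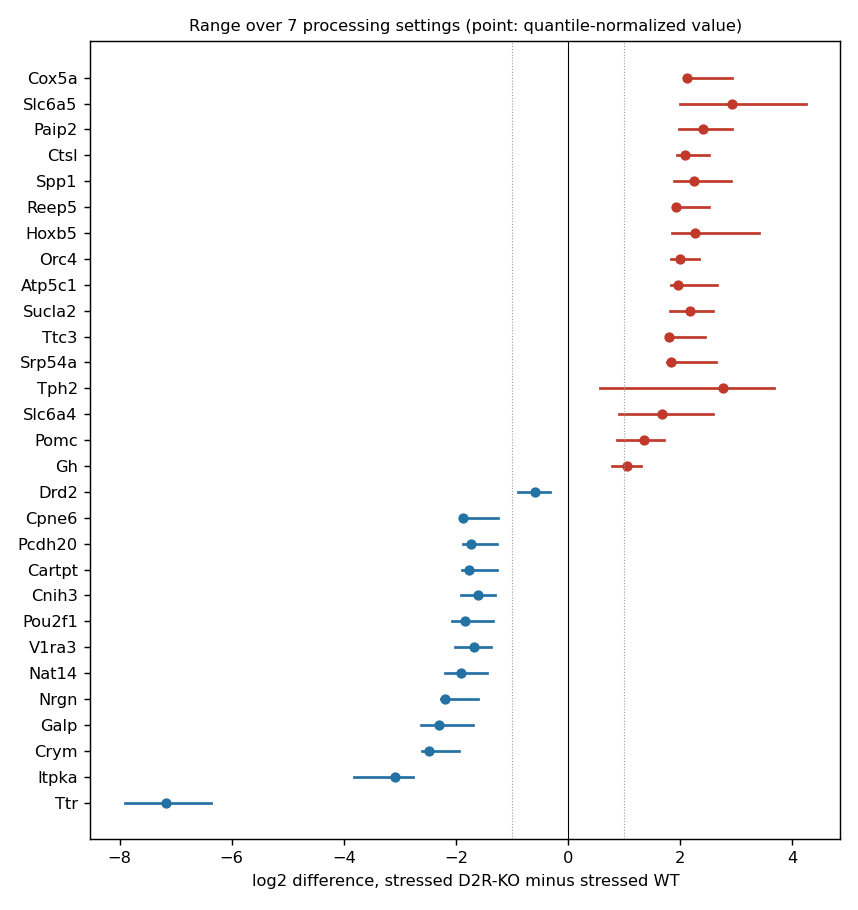
Log2 difference (stressed D2R-KO minus stressed WT) of the genes with the largest smallest-size difference over 7 processing settings, with Tph2, Slc6a4, Pomc, Gh and Drd2 between them. The point is the quantile-normalized value and the line the range over settings; dotted lines mark 2-fold. Cox5a stays at or above 2.12 and Ttr at or below -6.36, and Tph2 runs from 0.57 to 3.67.

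Few genes of activity and stress hormone response passed 1.5-fold, and those that did lay on both sides. Fos, an immediate early gene that neurons switch on with activity, had 108.4 in D2R-KO and 32.0 in stressed WT, with 124.4 in D2LR-KO and 155.9 in non-stressed WT (1.06). Dusp6 and Ier2, of the same class, differed by 0.91 and 0.75 and Homer1 by -0.67. The other 3 arrays lay above stressed WT for Fos, Dusp6 and Ier2. Of 23 immediate early genes 3 were higher by 1.5-fold or more and 1 lower. The share higher was above the 9.33% of all compared genes, and the share lower was below their 8.64%. The list median was -0.03 against stressed WT (0.06 on the deposited scale) and -0.33 against non-stressed WT. Tsc22d3, the glucocorticoid-induced leucine zipper, had 1015.5 in D2R-KO and 207.6 in stressed WT, with 700.9 in D2LR-KO and 799.2 in non-stressed WT (1.70). Klf9, another glucocorticoid target, had 319.9 in D2R-KO and 441.0 in stressed WT (-0.89). Tsc22d3 and Klf9 were the only 2 of 17 compared glucocorticoid-induced genes past 1.5-fold. In each direction that is a smaller share than among all compared genes. Sgk1 had 429.7 in D2R-KO and 226.2 in stressed WT, with 173.2 in D2LR-KO and 691.4 in non-stressed WT (0.42). Nr3c1, the glucocorticoid receptor, differed by 0.48. Among 27 receptors for stress peptides and steroids 4 were lower and 1 higher, with Npy2r at -1.03 and Esr1 at -0.85.

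Markers of glia and vessels were read to describe what else the pools held. Among astrocyte genes 5 of 16 were higher by 1.5-fold or more and 1 lower, with S100b at 1.15 and the connexins Gjb6 and Gja1 at 1.09 and 1.04, and the median of 0.10 turned to -0.03 with the background around the spot. For oligodendrocytes and myelin 4 of 15 were higher and 3 lower. Trf (transferrin) had 7786.1 in D2R-KO and 1671.2 in stressed WT (1.73), while Olig1 had 335.4 in D2R-KO and 442.6 in stressed WT (-0.82), and the median of -0.02 became 0.55 on the deposited scale. Of 16 microglial genes 2 were higher, Spp1 and Ctss, and 2 lower, Csf1r (-0.75) and Cd68 (-0.70). Endothelial genes were higher in 5 of 16 cases and lower in 1 (median 0.34), led by Slco1a4 and Itm2a at 1.28 each, while their median against non-stressed WT was -0.01. Among pericyte and smooth muscle genes 3 of 14 were higher and 0 lower, with Tagln (transgelin) at 137.2 in D2R-KO and 32.6 in stressed WT, with 426.4 in D2LR-KO and 116.7 in non-stressed WT (1.32). Of 13 meningeal and fibroblast genes 3 were higher and 1 lower, led by Crabp2 at 1.43. Blood and immune genes had 0 of 12 past 1.5-fold in either direction. Common reference genes were not level either: Tfrc differed by 1.53, B2m by 0.93, Ywhaz by -1.22 and Actb by -0.90, with the second Actb probe at -0.35.

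**Figure D5:**
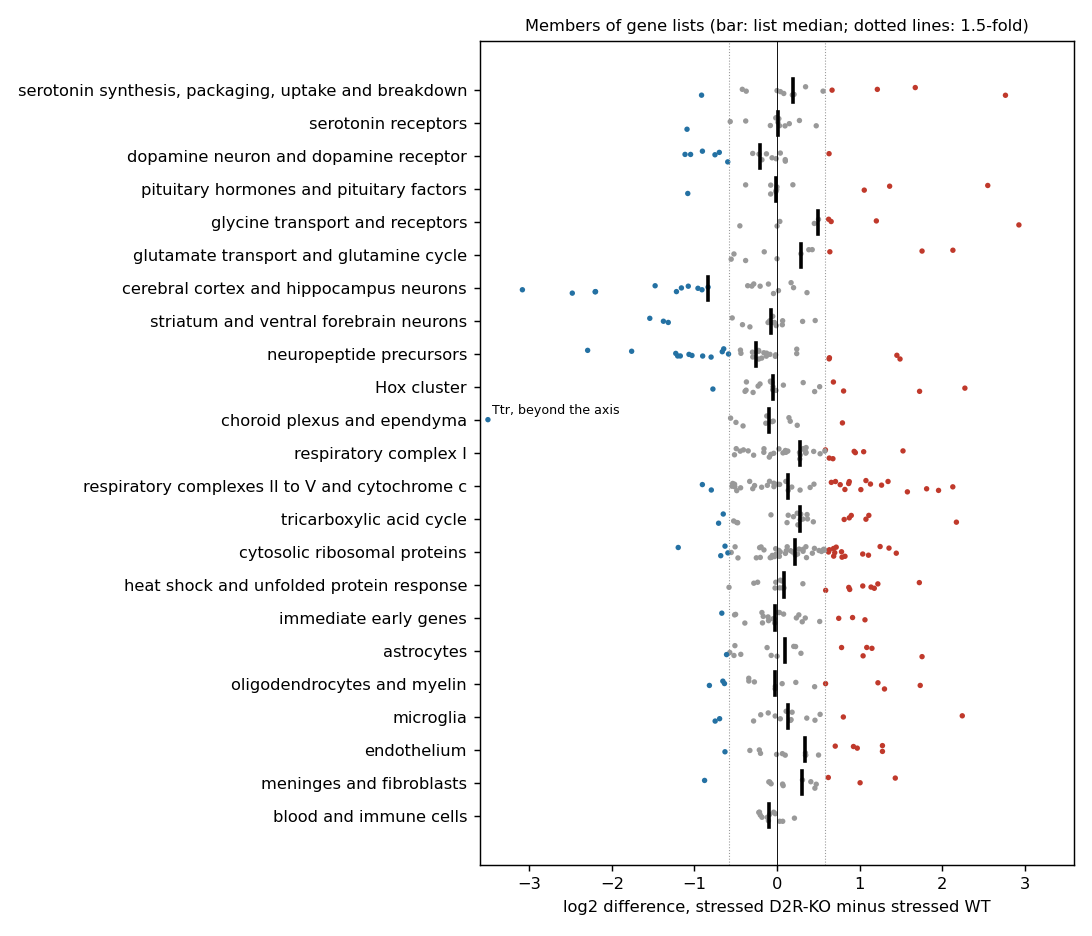
Log2 differences (stressed D2R-KO minus stressed WT) of the compared members of 23 gene lists, 1 point per gene, with the list median as a bar; red points are at least 1.5-fold higher and blue points at least 1.5-fold lower. Cortex and hippocampus genes lie to the left of 0 (median -0.83) and glycine genes to the right (0.50), while most lists spread to both sides. Prl and Cga are drawn at their computed differences although they were not above the limit in stressed WT.

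The genes for which D2R-KO, rather than stressed WT, was the array apart were few, and they were picked out after their values were seen. Besides Prl, Pomc and Gh, 4 were higher. Mbl2, a mannose-binding lectin, had 81.5 in D2R-KO and 8.7 in stressed WT, with 5.7 in D2LR-KO and 6.1 in non-stressed WT (1.5), and among those detected on both arrays it alone stayed at 2-fold or more in all 7 settings (lowest 1.0). Jaml, a leukocyte adhesion molecule, had 121.5 in D2R-KO and 33.6 in stressed WT, with 37.7 in D2LR-KO and 23.6 in non-stressed WT (1.15). Cdh22, a cadherin, had 120.0 in D2R-KO and 33.1 in stressed WT, with 62.4 in D2LR-KO and 57.9 in non-stressed WT (1.15), and Doc2g differed by 1.02. The 3 lower genes were Ldha, the splicing protein gene Snrpb (-1.06) and Marcksl1 (-1.04). Ldha, lactate dehydrogenase A, had 1187.0 in D2R-KO and 1830.0 in stressed WT, with 1733.0 in D2LR-KO and 1730.5 in non-stressed WT (-1.10). It alone of the 3 lay at least 1.5-fold below every other array. D2R-KO was within 1.5-fold of D2LR-KO for Snrpb (log2 levels 9.37 and 9.88) and Marcksl1 (7.99 and 8.47). None of the 3 lower genes was 2-fold lower in all 7 settings.

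The 48 genes with the 2 knockout pools close to each other and the 2 WT pools close to each other were mostly lower, 39 against 9. Of these, 6 of the lower and 4 of the higher ones kept a 2-fold difference in all settings. D2LR-KO and non-stressed WT were not required to differ. They lay within 1.5-fold for some genes, such as Camk2a (log2 levels 7.15 and 7.55) and Hapln2 (8.25 and 7.75). Among the lower genes, Pcdh20, a protocadherin, had 127.3 in D2R-KO and 372.3 in stressed WT, with 145.5 in D2LR-KO and 398.4 in non-stressed WT (-1.73). Ly6h, a membrane-anchored protein of neurons, had 701.6 in D2R-KO and 1709.9 in stressed WT, with 693.2 in D2LR-KO and 1947.9 in non-stressed WT (-1.74). Cnih3, an auxiliary subunit of AMPA receptors, differed by -1.60, and Nptx1 (neuronal pentraxin), Camk2a (a calcium-dependent kinase) and Fezf2 (a factor of deep cortical neurons) by -1.48, -1.22 and -1.07. Several of these, among them Nptx1 and Camk2a, belong to the cortex and hippocampus list described above. On the higher side stood Adm (adrenomedullin) at 1.24, Fgf1 and Hapln2, which encode a growth factor and a matrix protein of nodes of Ranvier, at 1.2 each, Chd7 (a chromatin remodeller) at 1.11, and Pvalb and Gchfr. Genes detected on 1 array only gave small bounds apart from Prl: Nr0b2 was at least 1.51-fold, Hoxaas2 at least 1.47-fold, Hoxc6 at least 1.22-fold and Mogat1 at least 1.19-fold higher, and no bound on the lower side exceeded 1.09-fold (Olfr209).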

How the data were processed

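RNA labelled with Cy5 was hybridised to 1 single-colour array per group. Per the file headers, the scanner files give spot medians (intensity at 635 nm, from 3 scans at different gain) and medians around each spot. The sources used here do not say how scans were merged. The deposited value table also holds intensity. From the values, it equals the spot median minus a constant (36.7 to 38.8) divided by a factor per array (1.51 to 2.05). Folds and log2 values were computed here from the deposited spot intensities.

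Spot medians were corrected by normexp with the 2736 blank spots of each array as negative controls (limma 3.58.1, function nec, R 4.3.3), with an offset of 50, then log2 and quantile normalization over the 4 arrays. A probe was detected above the blank mean plus 2 SD (spot values of 38.0 to 40.3). The series' probe table gives 1 gene symbol for 16631 of 23473 probes and none for 6842. Of 16446 symbols 12501 stood in RefSeq (GRCm38.p6), 3883 older ones were updated and 62 were kept. The brightest probe stood for each of 229 genes with several, and 9 probes with unusable spots were left out. No genome build is given for the probes, so no probe positions are printed, and the only coordinates are those of the promoter windows from RefSeq. Later steps used Python 3.11.15, numpy 2.4.6, pandas 2.3.3 and matplotlib 3.10.9. The procedure was tested on simulated data.

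No test was possible with 1 array per group, and no value has a replicate error. A gene counted as higher or lower at 2-fold, and a list member at 1.5-fold. Where only 1 of the 2 arrays detected a gene, its fold is a bound. The 46 gene lists and the members were chosen with earlier results of these data known. Named are Drd2, Htr1a, Tph2, Slc6a4 and Slc18a2, and genes with an official symbol that is not a predicted or clone name: the 12 largest differences in each direction among genes detected on both arrays with the brighter signal at or above the median, the 12 in each direction largest across all settings, the 5 largest bounds in each direction, and up to 4 members per list past 1.5-fold with members of a defining role. Genes with D2R-KO, or both knockouts, apart were named after their values were seen. The 7 settings are the one above and local background, median scaling, offset 16, quantile normalization over the 2 arrays, cyclic loess and log2(deposited value + 25). Further alternatives were an offset of 200, no pseudocount, other filters, the mean of probes, all probes, and, chosen after seeing the data, the non-stressed WT array in place of stressed WT.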

Additional observations from a re-analysis of the deposited data

How the results depend on the processing

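The counts of genes at least 2-fold higher and lower in D2R-KO, 425 and 403, depended on the scale: median scaling gave 1129 and 49, the deposited values plus 25 gave 1016 and 97, and the deposited values with no pseudocount gave 2264 and 1502. An offset of 16 gave 810 and 696 and an offset of 200 gave 127 and 108, since a larger offset shrinks the differences of dim genes. With the non-stressed WT array in place of stressed WT, chosen after seeing the data, 18 were higher and 50 lower. Local background, cyclic loess, quantile normalization over the 2 arrays, the other filters, the mean of probes and all probes kept both counts within 1.5 times. The count of genes 2-fold higher in all settings, 196, became 102 when the offset of 200 was added, while the lower count of 35 became 29. At 1.5-fold these counts were 806 and 435. Of the named genes past 1.5-fold, 4 changed sign, all with the background read around the spot: Gchfr to -0.12, Bcas1 to -0.61, Ntsr2 to -0.22 and Elavl3 to 0.15. The cause was not tested. The share of 2-fold genes with stressed WT apart was 47.7% with that background and 80.2% to 84.4% in the other settings that use all 4 arrays. No list median of 0.26 or more in size changed sign over the 7 settings. No paired analysis was possible because each group has 1 array, and for that reason no replicate could be left out. Signal over background limits dim genes, whose differences the offset shrinks.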

Other observations

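Several gene groups were compared that the text above does not describe. Among Akt and GSK3 signalling genes, a pathway that D2 receptors engage through arrestins, 5 of 19 were at least 1.5-fold higher and 2 lower. For all 7 of these stressed WT lay outside the range of the other 3 arrays, and the list median against non-stressed WT was -0.06. Phlpp1, an Akt phosphatase, had 203.9 in D2R-KO and 63.6 in stressed WT (log2 difference 1.09). Gsk3b had 90.9 in D2R-KO and 37.2 in stressed WT, with 63.2 in D2LR-KO and 102.6 in non-stressed WT (0.74). Tsc2 had 143.9 in D2R-KO and 204.0 in stressed WT (-0.77). Among voltage-gated channels 5 of 34 were lower and 1 higher, with Kcnn3, a calcium-activated potassium channel, at -1.05 and Cacnb4, a calcium channel subunit, at 1.14. In the postsynaptic density list 4 of 20 were lower and 0 higher (median -0.13), whereas in the synaptic vesicle list 4 of 31 were higher and 2 lower, with Snap25, a fusion protein, at 1.12 and Stx1a, its partner, at -1.19. Of 14 pan-neuronal genes 2 were higher and 1 lower. Proteasome genes had 4 of 29 higher and 2 lower, with a median of 0.05 that turned to -0.09 with the background around the spot.

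Circadian clock genes showed 1 of 17 higher, Arntl with 96.8 in D2R-KO and 40.6 in stressed WT (0.73), and 2 lower, Dbp with 551.1 in D2R-KO and 644.4 in stressed WT (-0.68) and Per2 with 21.7 in D2R-KO and 45.1 in stressed WT (-0.61). Interferon response genes had 0 of 17 higher and 2 lower, Ifitm3 (-1.05) and Rsad2 (-0.84). Of 12 cholinergic and noradrenergic brainstem genes 0 were higher and 2 lower, Chat, the enzyme of acetylcholine synthesis (-0.71), and Dbh, that of noradrenaline synthesis (-0.60). Among 10 oligodendrocyte precursor genes 1 was higher, Bcas1, whose difference of 0.65 turned to -0.61 with the background around the spot, and 2 were lower. Probes without a gene symbol behaved like the named ones in number, with 190 higher and 167 lower at 2-fold of 6182.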
